A study of Mus musculus with 9 samples.

Results

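The 3 orosomucoid genes Orm1, Orm2 and Orm3 and the lipocalin gene Lcn2 were followed in mouse liver RNA-seq. They were chosen by symbol as the 4 rows of the deposited table that carry these names, out of 19944 genes, and their values played no part in that rule. The study compared livers of 3 genotypes of Snd1, which encodes a protein with a Tudor domain that reads methylated arginine. The KI livers carry a mutation of the Tudor domain, the KO livers lack Snd1, and the WT livers are wild type, with 3 libraries for each genotype. All mice were males on normal chow, the sample titles give the FVB strain, the livers were taken at 60 days of age, and the labels name no treatment for any group. The labels do not name the residues changed in the KI allele or the design of the KO allele. Libraries are called here by genotype and by the replicate number of the sample title, such as KO_1.

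Orosomucoids and lipocalin 2 are secreted proteins of the lipocalin family, which fold into a barrel that holds small hydrophobic ligands. Liver cells release them during the acute phase response, in which interleukin 6 acts through STAT3, interleukin 1 and tumour necrosis factor act through NF-kB, and C/EBP factors and glucocorticoids add to the transcription of the genes. Orosomucoid, also called alpha-1-acid glycoprotein, is a heavily glycosylated plasma protein that carries drugs and steroids, and lipocalin 2 binds bacterial siderophores and so withholds iron. Lipocalin 2 is made by hepatocytes and is also a granule protein of neutrophils.

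The samples are labelled hepatocyte but come from liver tissue with all its cell types. In such bulk samples fewer or more cells of a type cannot be told apart from less or more RNA per cell. The values are normalized counts, that is, reads per gene divided by the authors' size factor for the library. Between 59678412 and 66384374 reads per library were recovered from them, so counting error is small for all but the lowest values. Snd1 itself read 5373, 7941 and 5595 in KI_1, KI_2 and KI_3, 227, 414 and 359 in KO_1, KO_2 and KO_3, and 6951, 8446 and 6512 in WT_1, WT_2 and WT_3, so the KO libraries were low for their targeted gene as labelled. Exocrine pancreas transcripts (15 markers) made up 5.99% of the reads of KI_3, 0.522% of KI_1 and 1.26% of WT_3, and at most 0.00525% of each of the other 6 libraries. The sample descriptions carry a different number for each library. No label says whether replicate libraries came from separate animals or how the replicate numbers were given, so p-values measure the spread between these libraries.

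The Orm genes form a cluster on chromosome 4 of GRCm38 that spans 63344560 to 63365878, a length of 21.319 kb, with all 3 genes on the plus strand in the order Orm1, Orm3, Orm2. Orm1 (ENSMUSG00000039196) occupies 63344560 to 63348163, Orm3 (ENSMUSG00000028359) 63356162 to 63359511 and Orm2 (ENSMUSG00000061540) 63362449 to 63365878, each with 6 exons in GENCODE release M21. Lcn2 (ENSMUSG00000026822) lies on the minus strand of chromosome 2 at 32384633 to 32388252, also with 6 exons in its reference transcript. The Orm mRNAs are close copies. Over aligned bases, identity was 90.97% between Orm1 and Orm2, 86.53% between Orm1 and Orm3 and 88.47% between Orm2 and Orm3. The start of the coding sequence is shown because it lets the 3 copies be told apart. Capitals mark the 12 of the first 60 coding bases at which the copies are not all alike, and each pair differs at 8 of them.
Orm1, chr4:63344598-63344657, plus strand: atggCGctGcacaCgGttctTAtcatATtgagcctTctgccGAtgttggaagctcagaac
Orm2, chr4:63362487-63362546, plus strand: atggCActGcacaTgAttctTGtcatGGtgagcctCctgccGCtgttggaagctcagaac
Orm3, chr4:63356200-63356259, plus strand: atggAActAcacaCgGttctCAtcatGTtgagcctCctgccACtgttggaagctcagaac

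This likeness sets how well reads can be given to one copy. Of all windows of 50 bases in the reference mRNA, 79.6% were found in no other gene's transcripts for Orm1, 77.3% for Orm2, 96.4% for Orm3 and 100% for Lcn2. At 100 bases the shares were 93.0% for Orm1, 93.0% for Orm2, 100% for Orm3 and 100% for Lcn2. The longest identical run was 141 bases, between Orm1 and Orm2. How the authors' counting treated reads that fit more than one copy is not given in the sources used here, so Orm values carry an uncertainty that Lcn2 does not share, and its part in the results was not tested.

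Loss of Snd1 and mutation of its Tudor domain gave different pictures for these genes. In KO livers all 4 members rose over WT, with fold changes of group means of 564 for Lcn2, 66.7 for Orm2, 10.2 for Orm1 and 3.3 for Orm3. In KI livers none of the 4 passed the test against WT, and all 4 were lower than in KO livers. Calls are from limma on log2(normalized count + 1) with a Benjamini-Hochberg adjusted p under 0.05 over 15238 genes. By that rule 4.63% of genes were called higher and 4.2% called lower in KO against WT, 0.00656% higher and 0.0197% lower in KI against WT, and 3.6% higher and 4.85% lower in KI against KO. KO against WT and KI against WT use the same 3 WT libraries, and KI against KO shares its libraries with both.

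**Figure D1:**
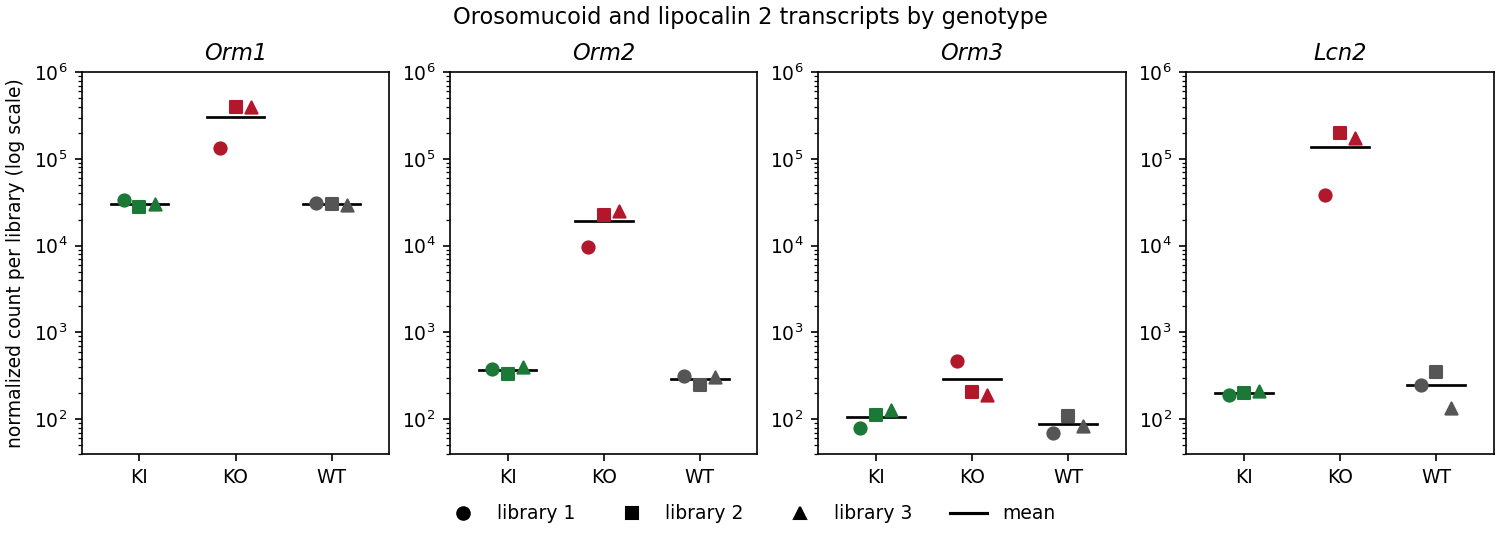
Normalized counts of Orm1, Orm2, Orm3 and Lcn2 (log scale) in the 3 libraries of KI, KO and WT livers; markers are libraries and lines are group means. The KO libraries lie above every KI and WT library in all 4 panels, and KO_1 is the lowest KO library except for Orm3, where it is the highest. The share of all genes with KO apart from the other libraries was not counted.

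Orm1, the main orosomucoid transcript of mouse liver, read 33318, 28016 and 29905 normalized counts in KI_1, KI_2 and KI_3, 134928, 393986 and 394331 in KO_1, KO_2 and KO_3, and 31198, 30107 and 29617 in WT_1, WT_2 and WT_3. Every KO library was far above the others, KO_2 and KO_3 were nearly alike with KO_1 well below them, and the KI and WT libraries overlapped. Orm1 rose in KO livers against WT, with a log2 fold change of 3.19 ± 0.36 (SE) and an adjusted p of 0.0011 in limma. KI livers averaged 30413 ± 2687 and WT livers 30307 ± 810 normalized counts (SD, n = 3 each), and limma gave a difference of 0.0016 ± 0.36 on the log2 scale with an adjusted p of 0.999. Against KO, Orm1 was lower in KI livers by a log2 fold change of −3.18 ± 0.36 (limma, adjusted p = 0.00117). Reads of Orm1 made up 0.0468% ± 0.0049 of the library in KI, 0.519% ± 0.271 in KO and 0.0499% ± 0.0014 in WT livers (SD, n = 3 each).

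Orm2 codes for the second form of alpha-1-acid glycoprotein. It read 377, 328 and 404 normalized counts in KI_1, KI_2 and KI_3, 9576, 22850.2 and 25353 in KO_1, KO_2 and KO_3, and 316, 246 and 304 in WT_1, WT_2 and WT_3. All 3 genotypes kept apart, KO by a wide margin and KI by a narrow one over WT. How many of all genes keep apart in this way was not counted. KO_1 was again the lowest of the KO libraries. The KO rise over WT was 5.94 ± 0.31 on the log2 scale (limma, adjusted p = 8.82e-06), the 11th largest log2 fold change of all genes tested. KI livers averaged 369 ± 38.4 and WT livers 289 ± 37.5 normalized counts (SD, n = 3 each), a log2 difference of 0.36 ± 0.31 that missed the threshold (limma, adjusted p = 0.701). Orm2 was lower in KI than in KO livers by −5.58 ± 0.31 on the log2 scale (limma, adjusted p = 1.63e-05).

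Orm3, the least abundant copy of the cluster, read 79.4, 111 and 128 normalized counts in KI_1, KI_2 and KI_3, 473, 207 and 188 in KO_1, KO_2 and KO_3, and 70.0, 109.8 and 83.1 in WT_1, WT_2 and WT_3. The KO libraries were above all others, but here KO_1 was the highest and stood more than the whole KI and WT range above KO_2 and KO_3. The gap within KO exceeded counting error, since the exact 95% Poisson interval was 431 to 518 normalized counts in KO_1 against 179 to 237 in KO_2 and 164 to 216 in KO_3. Orm3 rose in KO livers by a log2 fold change of 1.60 ± 0.36 over WT (limma, adjusted p = 0.0238), the 310th largest. That call is the least firm of the 4. The adjusted p from limma was 0.0518 without KO_2, 0.0959 without WT_1 and 0.0734 without WT_3. KI livers averaged 106 ± 24.6 and WT livers 87.7 ± 20.3 normalized counts (SD, n = 3 each), with overlapping libraries and a log2 difference of 0.27 ± 0.36 (limma, adjusted p = 0.816). Against KO, KI livers were lower by −1.33 ± 0.36 on the log2 scale with an adjusted p of 0.0485 in limma. That call was lost when any library other than KO_3 was left out, with values of −1.51 to −0.91 in those fits.

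Lcn2 changed most. It read 192, 199 and 211 normalized counts in KI_1, KI_2 and KI_3, 38256, 201637 and 175035 in KO_1, KO_2 and KO_3, and 248, 352 and 135 in WT_1, WT_2 and WT_3. Every KO library stood far above every other library, KO_1 was again the lowest of its group, and the 3 KI libraries fell inside the WT range. Lcn2 rose in KO livers by a log2 fold change of 8.92 ± 0.55 over WT (limma, adjusted p = 3.06e-05), the 3rd largest of all genes tested, and by 9.68 when KO_1 was left out. KI livers averaged 201 ± 9.39 and WT livers 245 ± 108 normalized counts (SD, n = 3 each), with a log2 difference of −0.18 ± 0.55 (limma, adjusted p = 0.932). Against KO the KI livers were lower by −9.10 ± 0.55 on the log2 scale (limma, adjusted p = 3.40e-05).

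For KI against WT, 0 of the 4 members were called by limma, 0 had an unadjusted p under 0.05, and edgeR and DESeq2 on the recovered reads also called 0. A miss of the threshold does not show that the genotypes are alike, and with a standard error of 0.31 to 0.55 on the log2 scale small differences could not have been seen.

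Per kilobase of reference mRNA, the levels fell in the order Orm1, Orm2, Lcn2, Orm3 in KI and WT livers, and in the order Orm1, Lcn2, Orm2, Orm3 in KO livers. Orm1 stood at 39242, 397095 and 39106 normalized counts per kb in KI, KO and WT livers. Orm2 stood at 477, 24851 and 372 per kb in KI, KO and WT livers, Lcn2 at 219, 151158 and 268, and Orm3 at 137, 374 and 113 in KI, KO and WT livers. In KI livers the libraries of neighbours in that order did not overlap. In KO livers Orm1 and Lcn2 overlapped, with 174100 to 508815 per kb for Orm1 and 41810.2 to 220369 for Lcn2. In WT livers Orm2 and Lcn2 overlapped, with SDs of 48.4 for Orm2 and 118 per kb for Lcn2. Together the 4 genes made up 0.0530%, 0.0473% and 0.0433% of the reads of KI_1, KI_2 and KI_3, 0.286%, 0.985% and 1.08% of KO_1, KO_2 and KO_3, and 0.0524%, 0.0509% and 0.0494% of WT_1, WT_2 and WT_3.

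The members did not rise in step in these libraries, as ratios within a library show. The exact permutation tests of the ratios, given below, did not pass. With 3 against 3 libraries they could not, since their smallest p is 0.1. Orm1 over Orm2 was 88.4, 85.5 and 74.1 in KI_1, KI_2 and KI_3, 14.1, 17.2 and 15.6 in KO_1, KO_2 and KO_3, and 98.9, 123 and 97.3 in WT_1, WT_2 and WT_3. The KO ratios were tight despite a wide range of levels, so Orm2 made up 6.04% ± 0.563 of all Orm counts in KO livers, against 1.2% ± 0.112 in KI and 0.940% ± 0.116 in WT livers (SD, n = 3 each). The sum of the Orm genes per Lcn2 count was 176, 143 and 144 in KI_1, KI_2 and KI_3, 3.79, 2.07 and 2.40 in KO_1, KO_2 and KO_3, and 127, 86.6 and 222 in WT_1, WT_2 and WT_3. Again every KO library lay apart from all others, while KI and WT overlapped.

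Orm1 over Orm3 behaved otherwise. It was 419, 251 and 234 in KI_1, KI_2 and KI_3, 285.5, 1907 and 2095 in KO_1, KO_2 and KO_3, and 446, 274 and 356 in WT_1, WT_2 and WT_3. KO_1 kept the ratio seen in the other genotypes, and KO_2 and KO_3 did not. As log2 differences of KO from WT, Orm2 over Orm1 changed by 2.76, Lcn2 over the Orm sum by 5.66 and Orm3 over Orm1 by −1.57. The two-sided exact permutation p was 0.1, 0.1 and 0.3 for these ratios, or 0.15, 0.15 and 0.3 after adjustment over the 3 ratios, and 0.1 is the smallest p that 3 against 3 libraries can give. For KI from WT the differences were 0.36, −0.19 and 0.27, with exact permutation p of 0.1, 0.7 and 0.5 and adjusted values of 0.3, 0.7 and 0.7. For KI from KO they were −2.40, −5.85 and 1.84, with exact permutation p of 0.1, 0.1 and 0.2 and adjusted values of 0.15, 0.15 and 0.2.

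**Figure D2:**
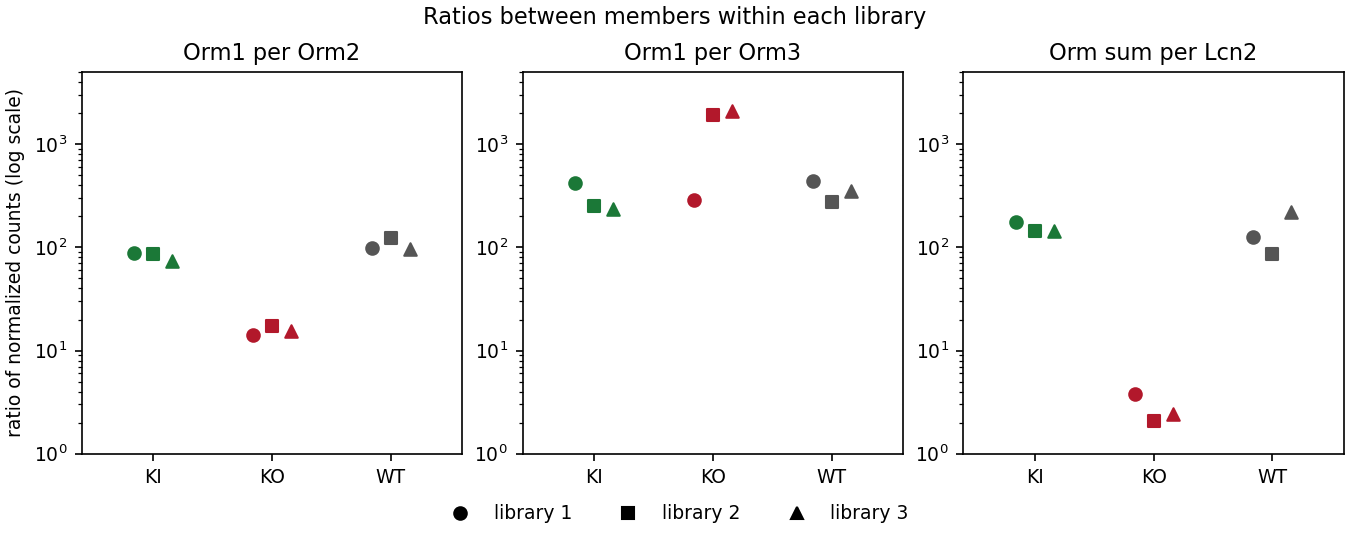
Ratios of normalized counts within each library (log scale), for Orm1 per Orm2, Orm1 per Orm3 and the sum of the Orm genes per Lcn2, in KI, KO and WT livers. The KO libraries stand apart in the first and last panels, with 14.1 to 17.2 Orm1 per Orm2, whereas KO_1 lies among the KI and WT libraries for Orm1 per Orm3.

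The KO libraries thus differed in the size of the response. Relative to the WT mean, KO_1, KO_2 and KO_3 were at 4.45-fold, 13.0-fold and 13.0-fold for Orm1, 33.2-fold, 79.2-fold and 87.9-fold for Orm2, 156-fold, 823-fold and 714-fold for Lcn2, and 5.39-fold, 2.36-fold and 2.15-fold for Orm3. KO_1 had the smallest rise for Orm1, Orm2 and Lcn2 and the largest for Orm3. The other acute phase genes followed the pattern of Orm1, Orm2 and Lcn2, since KO_1 was the lowest KO library for 29 of 30 of them and the highest for 0. Among the 706 genes called higher in KO, KO_1 was the lowest KO library for 63.6% and the highest, as for Orm3, for 15.6%, and over all 15238 genes tested it was the lowest for 35.9% and the highest for 36.7%. This look at the KO libraries was chosen after the values were seen and was not tested.

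**Figure D3:**
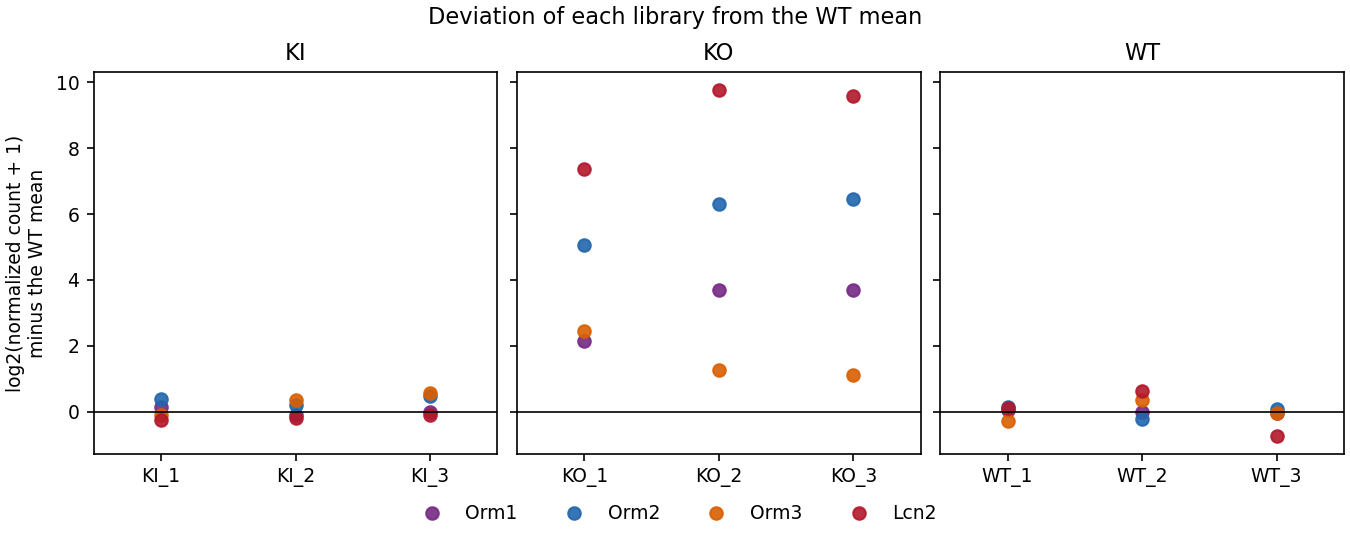
Difference of log2(normalized count + 1) of each library from the WT mean, for the 4 members in the libraries of KI, KO and WT livers. All members are above WT in every KO library, with Orm1, Orm2 and Lcn2 lowest in KO_1 and Orm3 highest there, and the KI libraries lie between −0.24 and 0.56, all 3 above 0 for Orm2 and all 3 below 0 for Lcn2.

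The genes closest to each member were found by the root mean square difference of log2(normalized count + 1) over the 9 libraries, each gene centred on its own mean. For Orm1 they were Hpx at 0.16, Itih4 at 0.234, Serpina3n at 0.247 and Hp at 0.260, against a spread of 1.56 in Orm1 itself. All 4 encode plasma proteins of the acute phase, among them the haem carrier hemopexin and the haemoglobin carrier haptoglobin. Hpx averaged 146982, 1363751 and 150724 normalized counts in KI, KO and WT livers, with 565984 in KO_1.

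For Lcn2, with a spread of 4.31, the nearest were the serum amyloid A genes Saa3 at 0.847, Saa1 at 0.914 and Saa2 at 1.06, then A2m, a protease inhibitor, at 1.73. Saa3 averaged 183, 110429 and 166 normalized counts in KI, KO and WT livers. A2m averaged 24.5, 5507 and 3.28 in KI, KO and WT livers, near the floor in WT, so its distance also depends on the added 1. For Orm2, with a spread of 2.75, they were Fgl1 (a secreted liver protein) at 0.582, the integrin gene Itga2 at 0.702, Prtn3 (a neutrophil granule protease) at 0.838 and Rptoros at 0.861. Fgl1 averaged 7592, 200172 and 7703 normalized counts in KI, KO and WT livers. Prtn3 averaged 12.8, 403 and 5.21 and Rptoros 0.61, 60.9 and 0.96 in KI, KO and WT livers. Both were near the floor outside KO, so their distances depend on the 1 added before the log. For Orm3, with a spread of 0.812, they were Gal3st1 at 0.320, Vasn at 0.329, Asap2 at 0.342 and the tubulin gene Tubb2b at 0.372, all with their highest value in KO_1. None of the nearest genes of Orm3 is on the list of acute phase genes. Orm1 and Orm2 differed by 1.23, Orm1 and Orm3 by 1.15, Orm2 and Orm3 by 2.17, and Lcn2 by 1.62 from Orm2, 2.77 from Orm1 and 3.70 from Orm3. Of the members, then, only Orm2 was closer to Lcn2 than A2m was, and it was farther from Lcn2 than Saa3, Saa1 and Saa2 were.

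Most other acute phase genes rose with the members in KO livers. Of 30 such genes, 25 rose and 0 fell against WT in limma, with a median log2 fold change of 2.76 beside 0.00083 over all genes tested. Of all genes, 4.63% were called higher and 4.2% lower. Saa2 and Saa1, which code for serum amyloid A, rose by 11.16 ± 0.32 and 8.64 ± 0.33 (adjusted p = 8.44e-08 and 9.07e-07). Fgl1 rose by 4.61 ± 0.31 and Lrg1, a leucine-rich plasma glycoprotein, by 3.61 ± 0.21 (limma, adjusted p = 4.97e-05 and 2.15e-05). The 5 that did not pass, named after their values were seen, were Serpina3m at 1.01, Cd14 at 1.74, Hamp at 0.058, C3 at 1.47 and Il1rn at 3.01. Hamp codes for the iron hormone hepcidin. The count of 25 was 22 with the pancreatic reads as a covariate and 4 with the 3 libraries that carry them left out. On this scale Lcn2 stood between A2m at 9.30 and Saa1, Orm2 above Fgl1, Orm1 next below Lrg1, and Orm3 among the smaller changes. Against WT, 0 of the 30 were called in KI livers by limma, with a median of 0.03. An unadjusted p under 0.05 was found for 5, and edgeR called 0 and DESeq2 2. Against KO, 26 of the 30 were lower in KI livers and 0 higher, with a median of −2.70. Limma called 4.85% of all genes lower and 3.6% higher in that comparison.

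**Figure D4:**
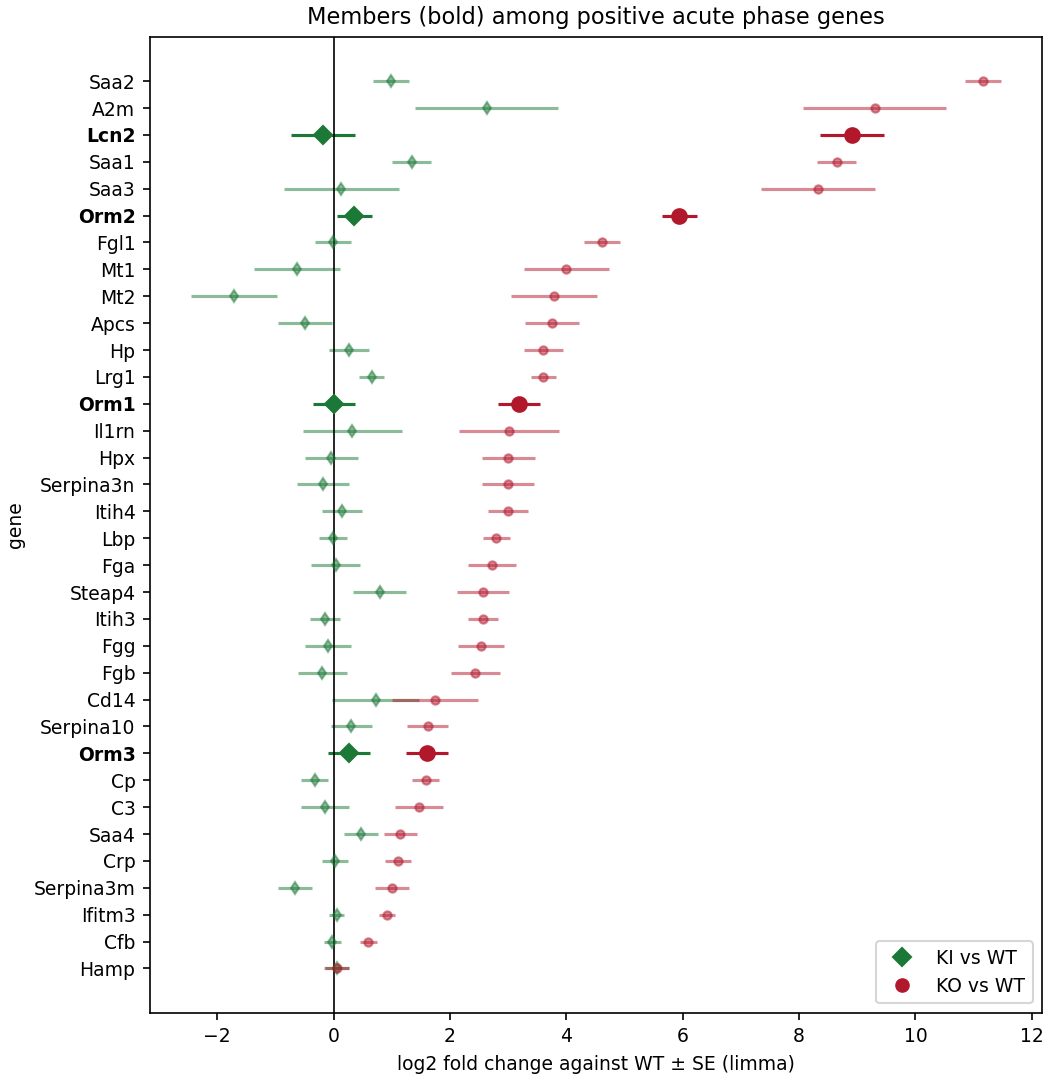
Log2 fold change against WT with its standard error from limma, for the 4 members (bold) and 30 other acute phase genes, with KI livers as diamonds and KO livers as circles, sorted by the KO change. Lcn2 at 8.92 and Orm2 at 5.94 lie near the top for KO, Orm1 at 3.19 in the middle and Orm3 at 1.60 in the lower part, while the KI changes of all 4 members have errors that reach or come near 0.

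Other lipocalins of the liver did not share a direction. Over all genes 4.63% were called higher and 4.2% lower in KO against WT. Of 7 tested in KO against WT, Ambp, which codes for alpha-1-microglobulin and bikunin, rose by 0.92 ± 0.22 (limma, adjusted p = 0.0289) and C8g, the lipocalin subunit of complement component C8, fell by 0.68 ± 0.18 (limma, adjusted p = 0.0452). Their median log2 fold change was 0.39, and Rbp4, the retinol carrier, was at −0.77 with an adjusted p of 0.138 in limma. Both calls were lost without any one of KO_2, KO_3, KI_1, KI_3, WT_1, WT_2 and WT_3, and 1 was left without KI_2. In KI livers 0 of the 7 were called against WT by limma, at an unadjusted p under 0.05, in edgeR or in DESeq2. Their median was 0.02. Against KO 1 was lower, beside 3.6% of all genes called higher and 4.85% lower. That count of 1 became 3 without KO_1 and 0 without KO_2, KI_1 or KI_3.

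Of 24 genes of the signalling routes that act on Orm and Lcn2, 7 rose and 0 fell in KO livers against WT, with a median of 0.26. Over all genes 4.63% were called higher and 4.2% lower. The interleukin 1 receptor gene Il1r1 rose by 2.39 ± 0.33 and Stat3 by 1.22 ± 0.19 (limma, adjusted p = 0.00299 and 0.00534). Nfkbiz, the nuclear NF-kB cofactor that assists Lcn2 transcription, rose by 1.45 ± 0.25 and the receptor gene Tnfrsf1a by 0.69 ± 0.14 (limma, adjusted p = 0.00827 and 0.0154). The other 3 called were Il6st, Socs3 and Bcl3, named after their values were seen. The C/EBP genes were not called, with Cebpa at −0.0005, Cebpb at −0.055 and Cebpd at 0.66. The count of 7 became 11 without KO_1, 3 without KO_2, 4 without KO_3, 4 without WT_1 and 4 without WT_2. In KI livers 0 of the 24 were called against WT by limma, edgeR or DESeq2. Of them 2 had an unadjusted p under 0.05 against WT. In KI against KO 5 were called lower, beside 4.85% of all genes. That count of 5 became 9 without KO_1, 0 without KO_2, 3 without KO_3, 2 without KI_1 and 1 without KI_3.

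Genes linked to the protein products gave 3 calls in KO against WT, of 3 Lcn2 partners and 10 glycan genes tested, beside the 4.63% higher and 4.2% lower over all genes. Bdh2, linked to making the mammalian siderophore that lipocalin 2 binds, fell in KO livers by 2.03 ± 0.36 against WT (limma, adjusted p = 0.00937) and was higher in KI than in KO livers, a call that was lost without KO_2, KO_3, KI_1 or KI_3. The lipocalin 2 receptor gene Slc22a17 was near the floor, at 20.3, 14.2 and 26.0 normalized counts in KI, KO and WT livers. Of 10 genes of glycan synthesis and glycoprotein uptake, 2 rose in KO livers and 0 fell, with a median of 0.30. They were St6gal1, the enzyme that adds terminal sialic acid to plasma glycoproteins, at 1.73 ± 0.22, and Mgat5, a branching enzyme of N-glycans, at 0.88 ± 0.15 (limma, adjusted p = 0.00172 and 0.00634). Without KO_1 the count was 4. Both were also lower in KI than in KO livers, and 1 of these 2 calls was left without KO_2, KO_3, KI_1 or KI_3. Limma called 3.6% of all genes higher and 4.85% lower in KI against KO. In KI against WT, 0 of the 3 Lcn2 partners tested and 0 of the 10 glycan genes were called by limma, at an unadjusted p under 0.05, in edgeR or in DESeq2.

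Neutrophils also store lipocalin 2, so their markers are given beside it. Of 18 markers listed, 13 had values. Their summed normalized counts were 160 to 500 in KI livers, 507 to 2444 in KO livers and 116 to 323 in WT livers. KO was highest, but KO_1, its lowest library, barely exceeded KI_3, and Prtn3 gave 274 of the 507 in KO_1. Only Prtn3 and Elane were higher in KO_1 than in every KI and WT library. S100a8 and S100a9 read 28.4 and 52.7 in KO_1, within their WT ranges of 8.67 to 47.0 and 20.2 to 93.1. In KO_2 and KO_3 both were above every KI and WT library, S100a8 at 226 and 404 and S100a9 at 437 and 771. Neither was called in KO against WT (limma, adjusted p = 0.169 and 0.203). Lcn2 itself read 192 to 211 in KI, 38256 to 201637 in KO and 135 to 352 in WT libraries. Of 9 tested, Prtn3 rose by 6.26 ± 0.64 and Mmp8, a granule collagenase, by 4.38 ± 1.14 in KO against WT (limma, adjusted p = 0.000696 and 0.0418), with a median of 2.40. Over all genes, limma called 4.63% higher and 4.2% lower in KO against WT. The neutrophil count of 2 became 6 without KO_1 and 1 without any other library but KI_2. Mmp8 averaged 9.79, 89.4 and 2.64 normalized counts in KI, KO and WT livers, so only its KO libraries took it past the filter on low counts. Prtn3 averaged 12.8, 403 and 5.21 in KI, KO and WT livers. The granule genes Ngp, Cd177 and Elane did not pass that filter. Ngp was listed at 0 in all KI libraries, at 0, 20.3 and 27.2 in KO_1, KO_2 and KO_3, and at 0.96 to 2 in WT libraries, and Elane at 0.91 to 5.37 in KI, 13.2 to 23.5 in KO and 0 in all WT libraries. Cd177 was at 0 to 3.22 in KI libraries, at 0, 21.3 and 38.9 in KO_1, KO_2 and KO_3, and at 0 to 2 in WT libraries. Markers of Kupffer cells gave 2 rises of 12 in KO livers, Mpeg1 by 1.27 ± 0.17 and Marco by 1.75 ± 0.44 (limma, adjusted p = 0.00276 and 0.0364), with a median of 0.19, and Marco lost the call without KO_3, KI_3 or any one WT library. The part of these cells in the member values was not tested beyond these numbers.

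Markers of other cells were counted in the same way, beside the 4.63% of all genes called higher and 4.2% called lower in KO against WT. Of 11 hepatocyte markers limma called 0 in KO livers, edgeR 0 and DESeq2 2, while 2 had an unadjusted p under 0.05 and the median was −0.14. Without KO_1 limma called 3 of them. Alb averaged 2216982, 2352091 and 3433651 normalized counts in KI, KO and WT livers, and Serpina1a 476590.2, 483137 and 516809. Of 7 biliary markers Sox9 rose by 1.49 ± 0.34 (limma, adjusted p = 0.0249), with a median of 0.34, and lost the call without KO_2, KO_3 or any one WT library. Of 12 endothelial and stellate cell markers limma called 0, edgeR 0 and DESeq2 1, while 3 had an unadjusted p under 0.05 and the median was −0.14. Without KO_1 or without KI_2 limma called 1. Clec4g was at 0.28 and Kdr at −0.37. Of the 15 pancreas markers limma called 0 in KO against WT, edgeR 0 and DESeq2 14, and 0 had an unadjusted p under 0.05. Their median was −5.46, with Amy2a5 at −6.05 and Ctrb1 at −6.23. In KI against WT 0 markers of any cell type listed were called by limma, at an unadjusted p under 0.05, in edgeR or in DESeq2. Against KO, limma called 3.6% of all genes higher and 4.85% lower in KI livers. It called 2 neutrophil, 1 Kupffer cell and 2 biliary markers lower, and 0 of the hepatocyte, endothelial and stellate, and pancreas markers. DESeq2 called 2 hepatocyte, 1 endothelial or stellate and 15 pancreas markers in that comparison, and edgeR called 0 of them. An unadjusted p under 0.05 was found for 2 hepatocyte, 2 endothelial or stellate and 10 pancreas markers. Leaving out 1 library moved these KI against KO counts. Neutrophil calls became 5 without KO_1 and 1 without any other library but KI_2. Biliary calls became 1 without KO_1 or WT_2 and 0 without KO_2, KO_3, KI_1, KI_3, WT_1 or WT_3. Hepatocyte calls became 3 without KO_1, endothelial and stellate calls 1 without KO_3 and 2 without KI_2, and pancreas calls 14 without KI_2. The pancreatic reads were at or below 0.00447% in all 3 KO libraries, and the 3 libraries that carry them are all KI or WT. Their part in the member values was not tested beyond the fits without them. With the 3 libraries that carry them left out, the log2 fold change of KO over WT was 3.17 for Orm1 and 1.58 for Orm3, with adjusted p of 0.0992 and 0.199 in limma, and Orm2 and Lcn2 still passed at adjusted p of 0.0220 and 0.0368. Only 30 genes were then called in all, of 2732 at an unadjusted p under 0.05, and 0 outside the acute phase list in the lists described here.

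The promoters of Orm2 and Orm3 are shown as a description, and their part in the unequal changes of the copies was not tested. They come from RefSeq on GRCm38.p6, a C57BL/6J reference and not the FVB strain, and 3 of the 4 members matched an entry, Orm1 not being among them. Each is the 250 bases before the start of the gene in RefSeq, and capitals mark matches to the motifs searched on both strands, which were TTGCNNAA for C/EBP, TTCNNNGAA for STAT, GGGA and CC with any 4 bases between for NF-kB and AGAACA for the glucocorticoid receptor. For Lcn2 the 30 bases around its match are given. Positions are counted back from the RefSeq start, which for Orm3 lies a few bases before the GENCODE start given above. For Lcn2 the RefSeq start lies inside the GENCODE gene span, which includes longer transcripts, so the Lcn2 stretch is upstream of the RefSeq start but within that span.
Orm2, chr4:63362199-63362448, plus strand: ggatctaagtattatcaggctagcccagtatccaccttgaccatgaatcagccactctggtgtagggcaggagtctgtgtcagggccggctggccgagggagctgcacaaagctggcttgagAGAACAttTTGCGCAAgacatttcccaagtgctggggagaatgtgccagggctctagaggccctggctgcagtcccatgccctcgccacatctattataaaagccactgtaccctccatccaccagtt
Orm3, chr4:63355908-63356157, plus strand: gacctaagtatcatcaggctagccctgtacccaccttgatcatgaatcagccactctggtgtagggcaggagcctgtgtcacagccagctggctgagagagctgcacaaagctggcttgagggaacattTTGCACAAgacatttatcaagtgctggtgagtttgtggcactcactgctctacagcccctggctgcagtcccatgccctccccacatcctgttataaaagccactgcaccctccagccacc
Lcn2, chr2:32387937-32387966, minus strand: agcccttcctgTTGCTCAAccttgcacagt

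The Orm2 and Orm3 promoters were identical at 88.98% of 245 aligned bases. Both hold a C/EBP match, at 120 to 113 bases before the start in Orm2 and at 121 to 114 in Orm3, and the Orm2 match TTGCGCAA reads the same on both strands. Beside it Orm2 also holds AGAACA at 128 to 123, and none of the matches overlap. The Lcn2 window holds a C/EBP match at 216 to 209 bases before its RefSeq start. The letters of the STAT and NF-kB motifs were not found in the 3 windows. Among 27025 promoters of the same length, 9.55% hold the C/EBP letters, 7.18% the STAT letters, 17.3% the NF-kB letters and 16.2% AGAACA. A match is a description of the letters and not evidence of binding.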

How the data were processed

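Total RNA of liver was made into stranded mRNA libraries, per the labels' protocols. TopHat2, Bowtie2, featureCounts and the build GRCm38 are named without roles, per the submitters' processing notes. Versions, annotation, strand setting, filter and scaling tool are not given in the sources used here. The authors deposited 1 table of normalized counts, a signal in which each column holds whole multiples of a step. With a tolerance of 0.0051, at least 99.995% of values in each library came out as whole reads, and 5 values did not. The step of WT_3 is so close to 1 that only its higher values show it. No column lacked a sample (0), and 59678412 to 66384374 reads were recovered per library.

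Values were tested as log2(value + 1) in 15238 genes with a mean of at least 10, with limma 3.58.1 (R 4.3.3, trend, 9 libraries, 3 group means, 6 residual degrees of freedom), two-sided, with Benjamini-Hochberg adjustment over all genes tested. The procedure was tested on simulated data. Alternatives were edgeR 4.0.16 and DESeq2 1.42.0 on recovered reads, pseudocounts of 0.5 and 10, filters, TMM and library total scaling, fits of 2 groups, replicate blocks, pancreatic transcripts as a covariate or their 3 libraries left out, and each library left out. Ratios were tested by exact permutation. Sequences were aligned with Biopython 1.88. Chi-square per degree of freedom was at least 68.1 between replicates, well above sampling noise, so none were counted as duplicates.

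Named are the 4 members and Snd1, of each of 11 lists up to 4 called genes with the smallest adjusted p in KO against WT or, with none called, the 2 most abundant, and the 4 nearest genes of each member. Other genes were named after their values were seen. The members and lists were chosen with earlier results of these data known.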

Additional observations from a re-analysis of the deposited data

How the results depend on the processing

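In KO against WT, Orm2 and Lcn2 passed in 22 of 22 alternatives (highest adjusted p 0.0220 and 0.0368 in limma), Orm1 in 21 and Orm3 in 17. With the 3 libraries that carry pancreatic transcripts left out, KI has 1 library, assumed to vary like the others; Orm1 was then at 3.17 and Orm3 at 1.58 in KO against WT, and Orm1 at −3.30, Orm2 at −5.75, Orm3 at −1.24 and Lcn2 at −9.11 in KI against KO, all short of the threshold. With the pancreas covariate Orm3 missed it, at 1.65 in KO against WT and −1.41 in KI against KO. Orm3 in KI against KO, at −1.33, also missed it with no filter (adjusted p 0.0540), 2 groups (0.0986) or the title block (0.0664).

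Genes called in KO against WT numbered 1346, and 2293 with DESeq2, 871 with 2 groups, 750 with the covariate and 30 without the pancreatic libraries. In KI against KO they numbered 1287, and 2286, 608, 137 and 4 in the same order. In KI against WT they numbered 4, and 8 with no filter, 7 with a mean of at least 50, 7 with library total scaling, 1 in edgeR, 372 in DESeq2, 28 with 2 groups, 0 with the covariate and 0 without the pancreatic libraries.

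Leaving out 1 library gave 501 (KO_2) to 2516 (KO_1) genes called in KO against WT, with 778 without KO_3, 533 without WT_1, 611 without WT_2 and 609 without WT_3. It gave 0 to 35 in KI against WT and 400 to 2301 in KI against KO. Orm3 ran over 1.19 to 1.85 in KO against WT and −1.58 to −0.91 in KI against KO.

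For KI against WT, where no member passed, Orm1 changed sign with library total scaling (−0.10), without the pancreatic libraries (−0.13) and over libraries left out (−0.066 to 0.059), and Lcn2 with the covariate (0.064) and over libraries left out (−0.56 to 0.13). In KO against WT, Amy2a5 (0.56) and Ctrb1 (0.12) changed sign with the covariate, and Serpina1a (−0.31 to 0.12) and Clec4g (−0.062 to 0.46) over libraries left out. The cause of these changes was not tested. Library total scaling moved the median of all genes by −0.097 in KI against WT and by −0.10 in KI against KO.

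Replicate numbers were not used to pair libraries in the main fits. Deviations of same-numbered libraries correlated at −0.136 to 0.568 by title and −0.152 to 0.568 by column number. The highest values were 0.531 for KI_2 with WT_2 and 0.568 for KI_3 with WT_3, under both numberings. KI_3 and WT_3 both carry pancreatic transcripts. These correlations do not settle whether the numbers pair libraries. With the title numbers as a replicate block, 1551 genes were called in KO against WT and 1500 in KI against KO; with the column numbers, added after seeing the data, 1286, 1312 and, in KI against WT, 8.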
